A study of Mus musculus with 3 samples.

Results

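The regions described here are ATAC-seq peaks that were called 1 week after inactivation of Taf4 and that had no counterpart in the other lists of the series. In ATAC-seq a transposase cuts accessible DNA and leaves adapters there for sequencing, and a peak is a stretch in which the peak caller counted more reads than in its local background. The peaks were selected on the calls themselves: a peak of the 1 week list on chromosomes 1 to 19 was kept when it did not share even 1 bp with any wild type (WT) or 5 week peak. The rule kept 59240 of the 138129 autosomal 1 week peaks, or 42.9%, out of 347985 autosomal peaks over the 3 lists. They are called 1 week only peaks below, while the other 78889 peaks of that list, or 57.1%, are called shared, and 35991 of these overlapped peaks of both other lists. A further 42114 shared peaks overlapped a 5 week peak but no WT peak. These parts are counted together below unless stated.

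The libraries came from dissociated cells of purified islets of Langerhans of mice whose strain is labelled C5LBl6, with 1 library per group. The groups were WT, Taf4 KO at 1 week and Taf4 KO at 5 weeks. According to the study's methods, a floxed Taf4 was deleted by a tamoxifen-inducible Cre recombinase under the Ins1 promoter, a promoter of beta cells, and tamoxifen-injected animals with Cre and intact Taf4 served as controls, whereas the label of the ATAC-seq control states only wild type. According to the methods the mice were adult and of 1 age range at tamoxifen injection, while the sex and number of the animals behind each ATAC-seq library are not given in the sources used here. Since each group is a single library, no test between conditions could be made, and every difference below is a difference between libraries, which cannot be told apart from a difference between animals or preparations.

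Taf4 is a subunit of TFIID, the general factor that recognises core promoters and helps to assemble the RNA polymerase II initiation complex. Mammalian chromosomes alternate between GC-rich domains dense in genes and GC-poor domains that hold few genes, many of them long and tissue-restricted or arranged in clusters of receptor genes. Gene deserts, long stretches without a protein-coding gene, belong mostly to the GC-poor kind, which in most cells is late replicating and associated with the nuclear lamina. Accessible regions of a differentiated tissue gather at promoters and at enhancers near active genes, and therefore mostly in GC-rich domains.

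The 1 week library stood apart from the others in the distribution of its peaks over chromosomes. On chromosome X it held 12225 peaks, against 1272 in WT and 1451 at 5 weeks, or 88.5, 21.3 and 9.66 per 1000 autosomal peaks, and 10842 of these X peaks (88.7%) had no counterpart in another list. The libraries also differed in the local background recovered behind their peaks, taken as a sign of depth. Its 1st percentile was 3.66 reads in WT, 6.45 at 1 week and 9.38 at 5 weeks. Promoter peaks of Ins1, Ins2, Iapp, Pdx1, Nkx6-1 and Mafa, markers of beta cells, were present in all lists, and so were those of the alpha cell genes Irx2 and Ttr. Other islet markers differed between the lists: Slc2a2 had a promoter peak in WT alone, Gcg and Sst had one at 1 and 5 weeks but not in WT, and Hhex had one at 5 weeks alone. The acinar genes Cpa1, Ctrb1 and Pnlip, the endothelial gene Pecam1 and the collagen gene Col1a1 had no promoter peak in any list, while Kdr of endothelial cells had one in all lists and Ptprc, the leukocyte antigen CD45, had one at 1 week alone. The promoters of Ptf1a, Cdh5, Col1a2, Des and Csf1r, further markers of acinar, endothelial, stellate and immune cells, had a peak at 5 weeks alone. The part of these differences in the results below was not tested, and no result can be given without the 1 week library, since all members come from it.

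The DNA under a few of these peaks is printed so that their make-up can be read beside the values, from the plus strand of mm9 in lower case with each CG dinucleotide in capitals. The first is the member with the highest -log10 q, an intronic region of Cacnb2 at chr2:14890999-14891266. The next 4 are the members of highest -log10 q in each of the 4 densest domains described below, at chr3:74348565-74348864, chr3:111291232-111291507, chr1:143219610-143219831 and chr17:60073208-60073507, all far from any protein-coding gene. Then comes the second strongest of the members in promoters, that of Mia1 at chr7:27966350-27966649. The last, for contrast, is the strongest 1 week peak that was found in all lists, at chr9:35112837-35113136, which turned out to be made of the repeating unit of the mouse major satellite.
Cacnb2 intron: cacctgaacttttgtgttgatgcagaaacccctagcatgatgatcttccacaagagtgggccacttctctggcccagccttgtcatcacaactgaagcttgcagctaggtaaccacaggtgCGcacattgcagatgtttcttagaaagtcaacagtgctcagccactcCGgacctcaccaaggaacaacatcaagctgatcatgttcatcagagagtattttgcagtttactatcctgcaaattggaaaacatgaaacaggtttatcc
domain 1, chromosome 3: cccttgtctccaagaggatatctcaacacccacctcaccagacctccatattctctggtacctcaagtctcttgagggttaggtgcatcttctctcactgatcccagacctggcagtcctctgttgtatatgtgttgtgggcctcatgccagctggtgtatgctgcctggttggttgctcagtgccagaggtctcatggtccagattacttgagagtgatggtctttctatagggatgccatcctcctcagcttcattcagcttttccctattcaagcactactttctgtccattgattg
domain 2, chromosome 3: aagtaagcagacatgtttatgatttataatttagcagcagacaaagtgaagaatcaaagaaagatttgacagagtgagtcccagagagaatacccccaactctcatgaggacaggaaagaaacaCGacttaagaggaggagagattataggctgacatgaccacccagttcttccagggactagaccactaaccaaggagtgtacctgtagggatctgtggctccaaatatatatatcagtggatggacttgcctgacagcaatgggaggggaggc
domain 3, chromosome 1: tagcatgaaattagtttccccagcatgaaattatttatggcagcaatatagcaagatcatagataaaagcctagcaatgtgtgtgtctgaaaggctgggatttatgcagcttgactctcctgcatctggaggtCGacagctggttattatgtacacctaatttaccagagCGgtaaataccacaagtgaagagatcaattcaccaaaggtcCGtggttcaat
domain 4, chromosome 17: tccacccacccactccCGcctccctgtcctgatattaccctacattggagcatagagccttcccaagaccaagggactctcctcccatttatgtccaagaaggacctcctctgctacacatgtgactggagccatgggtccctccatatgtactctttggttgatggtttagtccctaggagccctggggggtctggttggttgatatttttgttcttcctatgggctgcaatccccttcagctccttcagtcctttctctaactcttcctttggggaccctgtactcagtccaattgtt
Mia1 promoter: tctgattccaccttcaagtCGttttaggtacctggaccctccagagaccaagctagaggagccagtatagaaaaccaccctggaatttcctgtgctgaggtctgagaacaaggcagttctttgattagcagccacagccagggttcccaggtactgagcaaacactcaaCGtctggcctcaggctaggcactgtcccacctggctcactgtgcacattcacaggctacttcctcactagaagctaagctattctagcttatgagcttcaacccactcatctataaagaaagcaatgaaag
peak in all lists, chromosome 9: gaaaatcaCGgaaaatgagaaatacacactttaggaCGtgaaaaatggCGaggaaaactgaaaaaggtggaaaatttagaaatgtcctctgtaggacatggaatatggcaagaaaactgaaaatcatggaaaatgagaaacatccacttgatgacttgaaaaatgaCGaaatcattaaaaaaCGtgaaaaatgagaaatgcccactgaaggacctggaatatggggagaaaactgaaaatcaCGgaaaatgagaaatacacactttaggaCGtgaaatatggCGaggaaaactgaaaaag
The sequences of the 5 members outside promoters held between 0 and 3 CG dinucleotides and had a GC content between 41% and 51.3%. The Mia1 promoter held 2 in 300 bases at a GC content of 49%.

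The 1 week only peaks were narrow and weak, and they lay close to the limit at which a peak was called. Their median width was 445 bp, with an interquartile range of 274 to 764 bp and a maximum of 3830 bp, against a median of 584 bp for shared 1 week peaks and 407 bp for peaks found at 5 weeks only. The fold over the local background, as the authors' caller gave it, had a median of 2.28 (2.17 to 2.44), and only 9 members reached 4. For shared peaks the median fold was 2.64, and for 5 weeks only peaks, whose library had a higher recovered background, it was 2.07. The median -log10 q was 1.71 (1.42 to 2.18), against 2.90 for shared peaks and 5.64 for the 1 week peaks found in all lists. A -log10 q under 2 was recorded for 67.5% of the members. Only 4200 members (7.09%) reached a -log10 q of 3, 299 reached 5 and 6 reached 10. In reads, the median member held a pileup of 17.4 over a background of 6.69, and the median shared peak 21 over 6.95.

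Whether a 1 week peak had no counterpart followed its strength. Of the 1 week peaks with a -log10 q under 1.5, 67.8% were found at 1 week only, and this share was 46.9% between 2 and 3, 20.7% between 3 and 5, 1.9% between 5 and 10 and 0.0742% from 10 upwards. It was 56.3% among peaks narrower than 300 bp and 15% among those of 2000 bp or more. These shares rest on the lists that also chose the members and are a description. At the edge of the rule, 863 members lay within 100 bp of a peak of another list, with a median -log10 q of 1.61, and 2254 shared peaks overlapped another list by at most 100 bp, with a median of 1.64. Values just inside and just outside the rule were therefore much alike. Over all members, the median distance to the nearest WT peak was 84392 bp and that to the nearest 5 week peak 5298 bp. Members lay near each other: 63.8% had another member within 10 kb, against 54.6% for 5 weeks only peaks.

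The strongest members show how rare high values were. The Cacnb2 region, in an intron of the gene of an auxiliary subunit of voltage-gated calcium channels, had the highest -log10 q of all members, 13.6, at a fold of 4.94, and it still lay only at the 97.2 percentile of the 1 week list. The nearest WT peak was 32635 bp away and the nearest 5 week peak 2601 bp. The next in order lay in an intron of 1110054O05Rik (chr4:59801955-59802271, -log10 q 12.1), 27.8 kb from Rnf217 (chr10:31357307-31358641, 11.7) and in Csmd3 (chr15:48505881-48506273, 11.0). A member 595 kb from Spanxn4, of a family of sperm proteins, reached 10.6, and one 11.9 kb from the defensin gene Defa24 reached 10.1. The remaining 4 of the first 10 lay in introns of Tyr, the tyrosinase of melanin synthesis, Ankrd13c, Asz1, a germline gene, and Litaf, with values between 9.06 and 9.60. None of the 10 lay in a promoter. The widest member, at chr5:80458670-80462499, spanned 3830 bp at a distance of 987 kb from Lphn3, an adhesion receptor gene, at a -log10 q of 1.52 and a fold of 2.08.

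The members gathered in GC-poor chromosomal domains. Autosomal bins of 1 Mb were ranked by GC content and put in 5 groups of nearly equal number. The least GC-rich group, with a median of 37.4% GC and 2.59 protein-coding genes per Mb, held 45.8% of the members (Wilson 95% interval 45.4 to 46.2, for counting error only) on 20.1% of the bases. The next groups held 28.8%, 15.1% and 7.80%, and the most GC-rich group, with 46.9% GC and 18.7 genes per Mb, held 2.54% (2.42 to 2.67). As a density, this was a fall from 56.5 to 3.15 members per Mb. Neither of the sets used for comparison showed such a slope: shared 1 week peaks lay between 29.4 and 35.4 per Mb in every group, and 5 weeks only peaks rose from 18.6 per Mb in the least GC-rich group to between 26.5 and 28.3 in the others. WT peaks ran the other way, from 3.70 to 53.7 per Mb. The share of 1 week peaks that were members accordingly fell from 65.7% to 8.89%, while the share of 5 week peaks found at 5 weeks only stayed between 36.3% and 43.3%. In the least GC-rich group shared peaks were far denser than WT peaks, at 29.4 against 3.70 per Mb. Most shared peaks there were thus matched by 5 week peaks alone, a part that was not counted by GC group on its own. The fall with GC content can therefore not be called particular to the members.

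**Figure D1:**
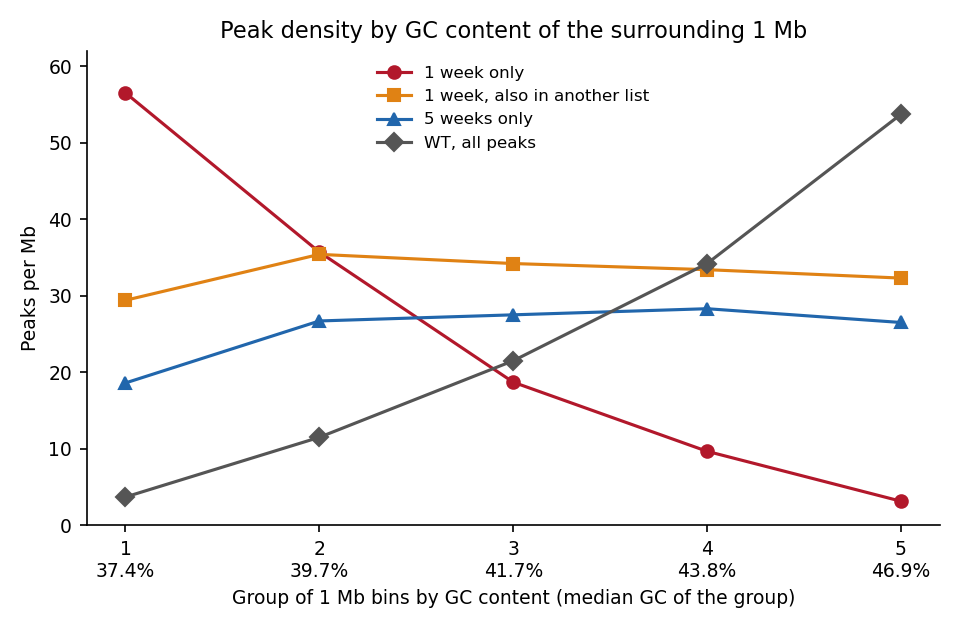
Peaks per Mb (vertical axis) in 5 groups of 1 Mb bins ordered by GC content (horizontal axis, with the median GC of each group), for 1 week only peaks, shared 1 week peaks, 5 weeks only peaks and all WT peaks, from 1 library per group. The 1 week only peaks fall from 56.5 to 3.15 per Mb, whereas WT peaks rise from 3.70 to 53.7.

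Over the 2401 bins, members per Mb had a Pearson r of -0.737 and a Spearman rho of -0.777 with GC content, and of -0.404 and -0.582 with the number of genes. For 5 weeks only peaks the values with GC were 0.144 and 0.168. Neighbouring bins and bins of 1 library are not independent, and these are descriptions. Within a GC group, bins with fewer genes held more members. In the least GC-rich group, bins without a protein-coding gene held 60.4 members per Mb and those with 10 or more genes 51.0. In the most GC-rich group, bins with 1 to 4 genes held 7.99 and those with 10 or more 2.27. The bins with fewer genes were also slightly poorer in GC, with medians of 37% against 37.7% and 46% against 47.2%. For 5 weeks only peaks the same bins held 19.4 and 21 per Mb in the least GC-rich group. In the most GC-rich group they held 41.2 and 23.4. Bins of the second group without any gene, at 39.3 members per Mb, stayed below gene-rich bins of the first, at 51.0.

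Peaks that all lists held in common were used to see whether the libraries differed in the same way outside the members. At 34728 autosomal peaks that matched 1 to 1 between the lists, the read pileup at 1 week, relative to WT, had a median ratio of 1.75 in the least GC-rich group, 1.53, 1.30 and 1.16 in the next ones and 0.873 in the most GC-rich group. At 5 weeks the ratio ran from 2.09 to 1.65. After division by the autosomal median of each library, the 1 week values ran from 1.54 to 0.768 and the 5 week values from 1.16 to 0.912. Read pileups at peaks present in every list thus moved with GC content in the same direction as the number of members. The pileups were recovered from the fold and p of each peak, which are averages over the peak, so the ratios are approximate. The part of a GC-dependent difference between the libraries in the member counts was not tested.

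The distribution over chromosomes was uneven. Against a mean of 24.7 members per Mb, chromosome 3 held 37.7 (5902 members), chromosome 1 30.4 and chromosome 6 30.2. The lowest were chromosome 18 with 17.4, chromosome 9 with 17.0, chromosome 11 with 10.7 and chromosome 19 with 1.84. Chromosome 19 held 107 members, which was 8.66% of its 1 week peaks, while on the other autosomes this share lay between 29.7% (chromosome 11) and 49.1% (chromosomes 3 and 16). If each bin held the mean density of its GC group, chromosome 19 would hold 1153 members, so its 106 members in counted bins were 0.0919 times that number. The same ratio was 0.64 on chromosome 11 and 0.691 on chromosome 18, and it lay between 0.891 and 1.19 on the remaining autosomes. The 5 weeks only peaks were also sparsest on chromosome 19, at 12.5 per Mb against a mean of 25.5, whereas WT peaks there were dense, at 31.6 per Mb. Read pileups at peaks common to all lists, relative to WT and to the autosomal median, were 0.780 on chromosome 19, 0.771 on chromosome 11, 1.17 on chromosome 3 and 1.15 on chromosome X. Chromosome 18, with 1.08, did not follow this order. Over the 19 autosomes, this read ratio and the density of members had an r of 0.822 and a rho of 0.749, given as a description because the chromosomes share their libraries.

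**Figure D2:**
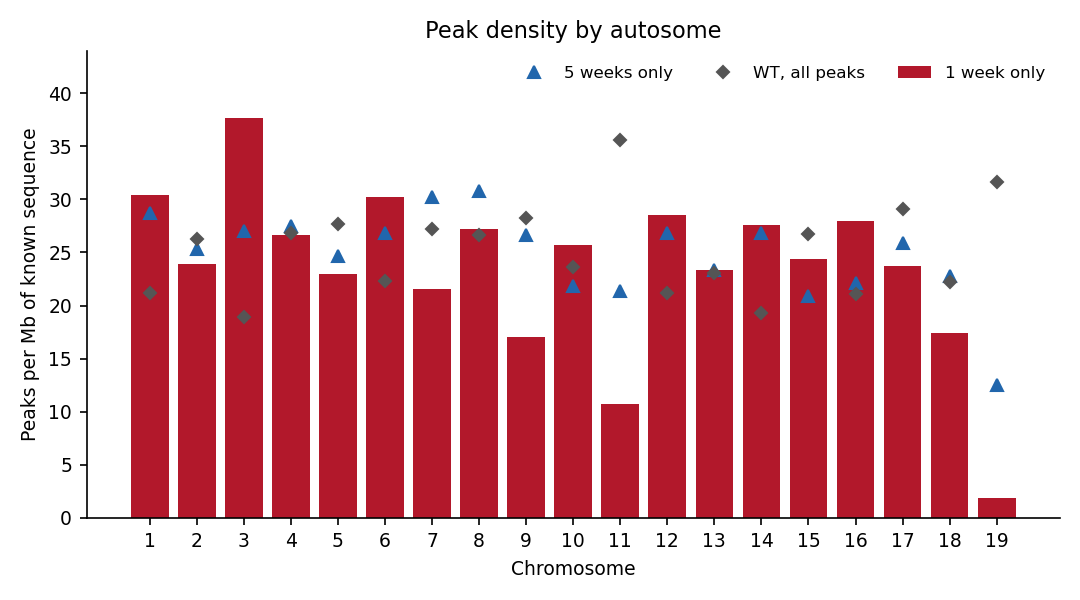
Peaks per Mb of known sequence (vertical axis) on each autosome (horizontal axis), as bars for 1 week only peaks, triangles for 5 weeks only peaks and diamonds for all WT peaks, from 1 library per group. The bars range from 37.7 on chromosome 3 to 1.84 on chromosome 19, where WT peaks stand at 31.6.

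A bin was called dense when it held at least 2 times the autosomal mean of members, which was the case for 507 of 2401 bins (21.1%). Adjacent dense bins were joined into 187 domains that spanned 506 Mb and had a median length of 2 Mb, a maximum of 12 Mb and 31 cases of 5 Mb or more. They held 54.9% of the members, as their definition favours, and 24.9% of the shared 1 week peaks, 23% of the 5 weeks only peaks and 4.02% of the WT peaks on 21.2% of the bases. Here too, shared peaks with and without a WT counterpart were not separated. The domains had a GC content of 38.1%, against 41.9% over all bins, and 3.07 genes per Mb against 8.95. Of the dense bins 66.1% belonged to the least GC-rich group. No member was found in 423 bins, and the densest bin held 94 per Mb.

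The densest domain lay on chromosome 3 from 70 to 75 Mb, between Otol1 and Serpini2. It held 400 members, or 80 per Mb, at 36.7% GC, and its 4 protein-coding genes were Zbbx, Sis (the intestinal sucrase-isomaltase), Bche (butyrylcholinesterase) and Slitrk3 (a synaptic adhesion protein). The WT list held 8 peaks in this domain, the 1 week list 620 and the 5 week list 322. The second lay on the same chromosome from 111 to 115 Mb between Prmt6 and S1pr1, around pancreatic and salivary amylase genes and Col11a1, with 304 members and 5, 464 and 245 peaks in the lists in the same order. Next came 142 to 145 Mb of chromosome 1, between Cfhr2 and Cdc73, with 227 members, and 59 to 62 Mb of chromosome 17, between Cntnap5c and Efna5, with 226. None of these 4 domains held more than 9 WT peaks, and 5 weeks only peaks numbered 107, 86, 56 and 77 in them.

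The fifth domain differed from these in its gene content. It ran from 85 to 90 Mb of chromosome 2, from Aplnr to Olfr1506, over a large cluster of olfactory receptor genes, and held 222 protein-coding genes, or 44.4 per Mb, at 37.1% GC. Its 376 members, 75.2 per Mb, placed it beside domains with almost no gene, and it held 10 WT, 567 1 week and 316 5 week peaks in all. Further domains of the first 10 lay on chromosome 3 between Ttll7 and Lphn2 (75 members in 1 Mb without a gene), on chromosome 14 between Gm10110 and Dach1 around Pcdh9 (299 in 4 Mb), on chromosome 13 between Cetn3 and Hapln1 around Mef2c and Edil3 (523 in 7 Mb) and on chromosome 1 between St8sia4 and D1Ertd622e (74 in 1 Mb).

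Gene deserts were the second setting in which members gathered. Stretches of at least 500 kb without a protein-coding gene numbered 600 and covered 28.2% of the bases. They held 51.7% of the members (51.3 to 52.1), against 30.3% of the 5 weeks only peaks, 26.9% of the shared 1 week peaks and 7.95% of the WT peaks. The shared value joins peaks with and without a WT counterpart. Shared peaks matched at 5 weeks alone were not counted in deserts on their own. The density in deserts was 45.4 members per Mb. Deserts lie mostly in GC-poor bins, and bins of the same GC groups would have held 27039 members where the deserts held 30640, a ratio of 1.13. Of 593 deserts with enough known sequence, 275 held at least 2 times the mean density and 201 less than the mean, including 39 without a member. The former had a median GC content of 38.0% and the latter of 41.6%, so deserts were not alike in this respect.

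The desert with the most members, 316, lay on chromosome 14 between Olfm4, an intestinal stem cell gene, and Pcdh17, a protocadherin (chr14:80422668-84843369), and held 7 peaks in WT, 476 at 1 week and 250 at 5 weeks. That between Cntnap5b and Cdh20 (chr1:102382520-106665105) held 301 members and that between Dsel and Cntnap5a (chr1:113761487-117581332) 267, with 5 and 13 WT peaks. The desert between Nudt12 and Efna5 (chr17:59152796-62953532) held 261. The fifth, between Otol1 and Sis (chr3:69832631-72692478), was the densest of them at 90.9 members per Mb, with 260 members and a single WT peak, 412 peaks at 1 week and 242 at 5 weeks. Among the genes at the ends of these deserts, Pcdh17, Cdh20, Cntnap5a and Cntnap5b encode cell adhesion proteins.

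Relative to genes, 75.3% of the members (74.9 to 75.6) lay between protein-coding genes, which make up 59.8% of the bases, and this share was 53.2% for shared 1 week peaks and 62.3% for 5 weeks only peaks. Introns held 22.8%, on 36% of the bases, and exons 1.22%. Promoters, taken as 1000 bp upstream to 100 bp downstream of a start, held 411 members or 0.694% (0.630 to 0.764), under their 1.38% of the bases, against 14.5% of shared peaks and 21.0% of WT peaks. The median distance to the nearest start of a protein-coding transcript was 160 kb for members, 74.9 kb for 5 weeks only peaks and 47.0 kb for shared peaks, and 21.1% of the members lay at 500 kb or more.

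Of 21418 autosomal protein-coding genes, 3179 (14.8%) held a member in the body and 406 (1.90%) in the promoter. Gene bodies together held 1.53 members per 100 kb, under the autosomal mean of 2.47. The share of genes with a member grew with length, from 5.36% under 10 kb to 86.2% of the 188 genes of 500 kb or more, whose bodies held 2.93 per 100 kb. Among other annotated kinds, immunoglobulin V segments held 5.38 per 100 kb, against 3.81 for 5 weeks only peaks, pseudogenes held 2 and lincRNA genes 0.917. Among promoter members, the highest -log10 q was 7.12 at Ppp2r2b, which encodes a neuronal regulatory subunit of protein phosphatase 2A, followed by 6.62 at Mia1, 6.57 at 4933403O03Rik and 5.56 at Phc1, a Polycomb gene.

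Genes with the most members, the first 10 by number, were all 1244 kb or longer, and most of them are known for roles in neurons. Lrp1b, a giant receptor of the LDL receptor family (ENSMUSG00000049252, chr2:40450768-42509118), held 144 members in 2058 kb, and 3 peaks in WT, 201 at 1 week and 93 at 5 weeks in all. Lrrc4c, a netrin-G ligand of excitatory synapses (chr2:96158326-97471823), held 112 members, with 1, 164 and 70 peaks. In both genes the 1 week list held about 2 times as many peaks as the 5 week list and WT almost none. Dlg2, a postsynaptic scaffold, and Gpc5, a glypican, held 95 each, and Cntn5, a contactin, held 94. Csmd1 and the neurexin gene Nrxn3 held 90 each, the scaffold gene Magi2 88 and Lingo2 85. Csmd1 went against the others, with 246 peaks at 5 weeks, 147 of them found at 5 weeks only, against 186 at 1 week. Nrxn3 had nearly the same number in both lists, 161 at 1 week and 155 at 5 weeks.

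**Figure D3:**
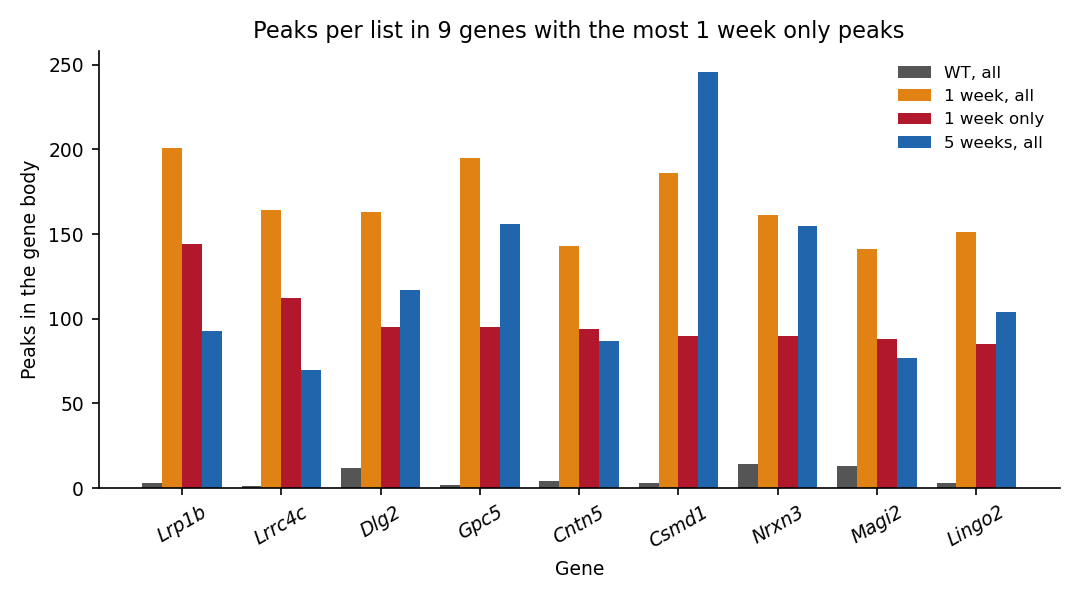
Number of peaks in the gene body (vertical axis) of 9 of the genes with the most 1 week only peaks (horizontal axis), as bars for all WT, all 1 week, 1 week only and all 5 week peaks, from 1 library per group. WT bars reach at most 14, whereas Lrp1b holds 144 1 week only peaks and Csmd1 is the only gene shown with more 5 week (246) than 1 week (186) peaks.

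Ranked by density among genes of at least 100 kb, other genes came first. Cps1, the first enzyme of the urea cycle (chr1:67169600-67277833), held 12 members or 11.1 per 100 kb, and it had no WT peak, 15 1 week peaks and 7 of 5 weeks. Arap2, a GTPase-activating protein (chr5:62993684-63157437), held 18 or 11.0 per 100 kb, and Rspo2, a potentiator of Wnt signalling, 15 or 10 per 100 kb. Then followed the collagen gene Col11a1 with 9.99, Ptprc with 9.78, Ralyl with 9.62, Zfpm2, a cofactor of GATA factors, with 9.57, Trdn, the triadin of striated muscle, with 9.41, Tph2, the neuronal enzyme of serotonin synthesis, with 9.40 and Tdrd3 with 9.31. Promoters of Cps1, Ptprc and Trdn carried a member and no WT or 5 week peak.

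By gene class, counted at loci extended by 50 kb on both sides, 14 of 27 classes lay above the autosomal mean, none at 2 times the mean or more, and 9 below 0.5 times it. At the top were taste and trace amine receptors with 1.92 times the mean (84 members), GABA receptors with 1.91 (174), glutamate receptors with 1.71 (492), olfactory receptors with 1.61 (1339) and synaptic adhesion genes with 1.54 (1816). For 5 weeks only peaks the same classes stood at 1.27, 1.28, 1.52, 1.09 and 1.01 times the mean of that set. Olfactory and vomeronasal receptor clusters followed in number of members, the latter with 706 members at 1.30 times the mean. When each locus was weighted by the density of its GC group, 12 classes lay above 1, olfactory receptors fell to 1.12, GABA receptors to 1.19, synaptic adhesion genes to 0.973 and vomeronasal receptors to 0.953, while keratin associated proteins stood at 1.80, endothelial, stellate and immune genes at 1.58 and taste and trace amine receptors at 1.52.

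Among the receptor classes, 169 of 1106 olfactory receptor genes (15.3%) held a member in the body, against 14.8% of all genes. In the promoter 75 of them held one, against 406 (1.90%) of all genes. Olfactory and vomeronasal receptor genes are short, with median lengths of 0.96 and 1.09 kb. Of all genes under 10 kb, 5.36% held a member in the body. Olfr131, Olfr140 and Olfr1507 held 2 each. Of vomeronasal receptor genes 65 of 330 (19.7%) held a member, with 7 in Vmn1r90 and 6 in Vmn2r27, and of the bitter taste receptors Tas2r129 held 3. Among 26 glutamate receptor genes 14 (53.8%) held a member, among them Grm7 with 64 and Grm8 with 62. Among 16 GABA receptor genes 12 (75%) did, led by Gabrb1 with 40 and Gabrg3 with 38. These 2 classes hold long genes, with median lengths of 279 and 89.6 kb. Of all genes, 51.2% of those of 100 to 500 kb and 25.4% of those of 50 to 100 kb held a member. Gabrb1 had a single WT peak, 61 1 week and 36 5 week peaks, but Gabrg3 had 3, 85 and 86, so that the total was alike at both times. Cadherins outside clusters stood at 1.30 times the mean, with 77 members in Cdh18 and 33 in Cdh12. Milk and saliva genes (1.33), the prolactin family (1.31), defensins (1.35), natural killer cell receptors (1.22) and serpins (1.01) also lay above the mean, with Smr2 (3 members), Defb7 (1), Klra9 (9), Serpinb3b (7) and Prl2b1 (1) among the genes holding most.

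Several classes held few members, among them Hox genes, clustered protocadherins and classes of broadly active genes. No member lay at the 4 Hox loci (0.892 Mb), where a count of 0 allows up to 0.336 per 100 kb (3 counts). Those loci held 1.10 times the mean of 5 weeks only peaks. They held hardly any 1 week peak of any kind, with 0.112 per 100 kb against 3.25 in WT and 4.04 at 5 weeks. The classes listed next held between 3.23 (clustered protocadherins) and 5.68 (histones) 1 week peaks of any kind per 100 kb. Loci of cytosolic ribosomal proteins stood at 0.122 times the mean, clustered protocadherins at 0.126, replication-dependent histones at 0.164, proteasome subunits at 0.171, respiratory chain subunits at 0.210 and TFIID subunits at 0.259. The clustered protocadherins lie on chromosome 18, which held 17.4 members per Mb against an autosomal mean of 24.7. The part of the chromosome in their value was not tested. None of 78 ribosomal protein genes and none of 67 histone genes held a member in the body, but these genes are short, with a median length of 3.31 and 0.53 kb, and only 5.36% of all genes under 10 kb held one. Weighted by GC group these ratios were 0.341, 0.176, 0.282, 0.388, 0.476 and 0.548, and C2H2 zinc finger genes, at 0.368 times the mean, rose to 0.707. In the TFIID class, Taf3 held 5 members in its body and Taf4b 2, and of the proteasome genes Psmd14 held 4. The TFIID class was drawn by symbol, as Taf followed by a number, or Tbp. Its 21 genes are more than the paper counts in TFIID, so its values are not those of TFIID subunits alone.

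**Figure D4:**
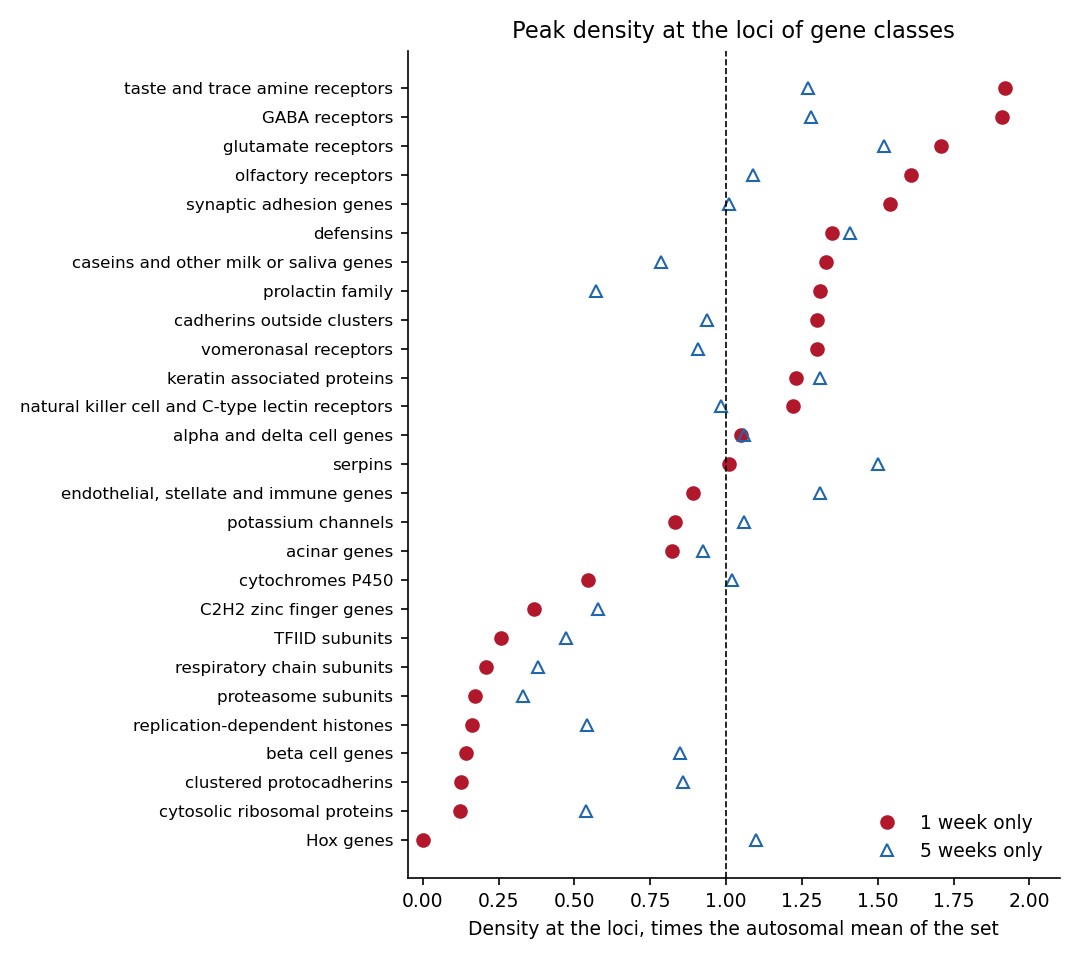
Density of 1 week only peaks (filled circles) and of 5 weeks only peaks (open triangles) at the loci of 27 gene classes (vertical axis), in multiples of the autosomal mean of the same set (horizontal axis, dashed line at 1). Circles range from 1.92 at taste and trace amine receptors to 0 at Hox genes, and beta cell genes stand at 0.143 against 0.849 for 5 weeks only peaks.

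The loci of genes that define beta cells, extended by 50 kb, held few 1 week only peaks, but the share of the genes with a member in the body was near that of all genes. The loci held 15 members, or 0.143 times the mean and 0.243 times the value weighted by GC group, and 4 of 32 genes held a member in the body (12.5%, against 14.8% of all genes), none of them in the promoter. Pcsk2, the prohormone convertase 2, held 3, which lay at chr2:143382043-143382586, chr2:143615759-143616456 and chr2:143639250-143639537 with -log10 q between 1.16 and 1.66, in a gene with 29 WT, 19 1 week and 30 5 week peaks. Ero1lb, a beta cell oxidoreductase of the endoplasmic reticulum, Isl1, an islet transcription factor, and Rfx6, another, held 1 each, with -log10 q of 2.71, 2.55 and 1.27. The 5 weeks only peaks at the same loci stood at 0.849 times their mean, and WT peaks there were dense, with 8.24 per 100 kb. All 1 week peaks at these loci, members or not, stood at 6 per 100 kb. By the rule, a 1 week peak that touches a WT peak cannot be a member. Few members at these loci therefore do not mean few 1 week peaks.

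Of 15 alpha and delta cell genes 4 held members in the body (26.7%, against 14.8% of all genes). Their loci stood at 1.05 times the mean, against 1.06 for 5 weeks only peaks, and at 1.29 when weighted by GC group. Ptprz1, a receptor phosphatase (chr6:22825502-23002916), held 14, with -log10 q from 1.32 to 3.05 and 13 of them in introns, in a gene with 4 WT, 21 1 week and 15 5 week peaks. This gene is 177 kb long, and 51.2% of all genes of 100 to 500 kb held a member. Cckbr, the gastrin receptor, held 3, Lepr, the leptin receptor, 2 and Gc, the vitamin D binding protein, 1. The hormone genes Gcg and Sst held none, since their 1 week peaks overlapped 5 week peaks. Among genes of other cells of the pancreas, 3 of 23 acinar genes (13%) held a member (Cpb1 3, Amy1 2, Prss2 1), and 10 of 25 endothelial, stellate and immune genes (40%) did, with 11 in Ptprc, 6 in Emr1 and 6 in Tek. Loci of these 2 lists stood at 0.821 and 0.890 times the mean, and above 1 when weighted by GC group, at 1.11 and 1.58. Ptprc, Emr1 and Tek are 112, 125 and 136 kb long, within the 100 to 500 kb at which 51.2% of all genes held a member. The median length of the endothelial, stellate and immune genes was 26.6 kb, and 10.8% of all genes of 10 to 50 kb held one.

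Locally, the members were GC-rich islands within GC-poor surroundings. The median GC content of the central 300 bases was 44.6% (41.3 to 48.1), against 38.8% in windows 10 kb before and after. The same step was seen in shared 1 week peaks, from 42.0% to 48.4%, and in 5 weeks only peaks, from 42.3% to 47.8%; the members lay lower at the centre and beside it. No CG dinucleotide was present in 13.4% of the members, against 4.36% of shared and 8.26% of 5 weeks only peaks. Runs of at least 10 A or T bases were found in 4.79% of the members and in 10.6% of the windows 10 kb before them. Words of 15 bases in the members occurred at a median of 12 copies over the autosomes, against 9 in shared peaks and 8 in WT peaks, and 8.30% of the members had a median of 100 copies or more, against 17.3% of the windows before them and 2.74% of shared peaks. Reads had been kept only at a unique place of the genome, which limits what any of the lists can hold of recent repeats.

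**Figure D5:**
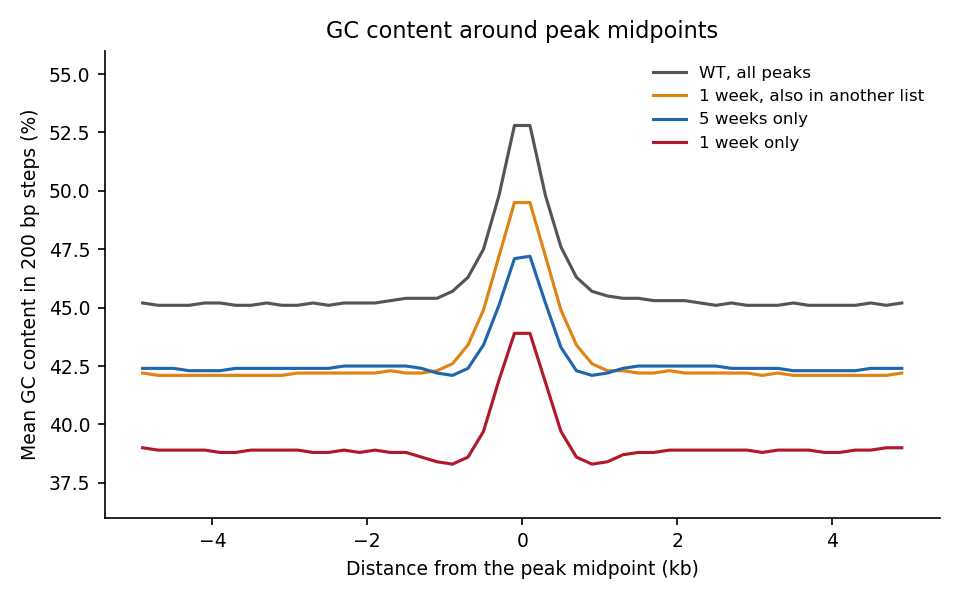
Mean GC content in steps of 200 bp (vertical axis) against the distance from the peak midpoint (horizontal axis, 5 kb to either side) for 1 week only peaks, 5 weeks only peaks, shared 1 week peaks and all WT peaks. The 1 week only curve rises from a low of 38.3% at 900 bp to 43.9% at the centre, below the WT curve at every distance.

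Short words that belong to the sites of known factor families were counted on both strands in the central 300 bases, and a match is only a match of letters. TGCTGAC, the Maf site, was present in 6.85% of the members and in 3.64% and 3.58% of the windows before and after, and the shares were 7.05% in shared and 7.09% in 5 weeks only peaks, so it did not set members apart. TGANTCA, the AP-1 site, was found in 9.70% of the members against 9.08% and 8.85%, and CANNTG, the E-box, in 82.8% against 78.7% and 79.2%. Words rich in A and T were less frequent in members than beside them: TATAAA, the TATA box, in 19.7% against 33.1%, TAATTA, the homeodomain site, in 8.31% against 12.9%, and AGATAA, the GATA site, in 17.9% against 21.7%. TGTTTAC, the forkhead site, was found in 4.57% of the members against 4.82% beside them, while shared peaks held it in 6.50% against 4.47%. GGGCGGG, the Sp and KLF site of GC-rich promoters, was found in 0.881% of the members against 0.848% and 0.817% beside them, and in 7.93% of the shared peaks. CCAAT, the NF-Y site, was found in 44.7% of the members against 44.5% and 44.3% beside them, and in 35.5% of the shared peaks. No word contains another, and GC content, which bears on the number of matches, differs between the sets.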

How the data were processed

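ATAC-seq was carried out on islet cells of 3 groups with 1 library each, grouped by the genotype and time labels. Per the labels and the study's methods, the authors demultiplexed reads with bcl2fastq 2.17.1.14, mapped them to mm9 with Bowtie 1.0.0, kept unique alignments and called broad peaks per library with MACS2 2.1.1. A control library, duplicate removal and a shift to the insertion site are not given in the sources used here. The deposited fold over local background is a ratio, and the deposited -log10 p and -log10 q are those of the authors' caller, averaged over the peak. The score the authors deposited was not used.

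Chromosomes 1 to 19 were analysed with Python 3.11.15, numpy 2.4.6, pandas 2.3.3 and scipy 1.17.1, on the NCBIM37 sequence (the build of mm9) with GENCODE vM1, over 2394 Mb of known bases and 21418 protein-coding genes. Overlap meant 1 bp, bins were 1 Mb with at least 50% known bases, deserts were 500 kb or more, and class loci were genes extended by 50 kb. Peaks were placed in bins, deserts and loci by their midpoint, and in promoters by overlap. The read pileup of a peak, not its total of reads, and its background were recovered from its fold and -log10 p, with the caller's pseudocount of 1. Both inputs are averages over the peak, so these values are approximate. Depth is otherwise unknown, and intervals are Wilson 95% intervals for counting error only. The code was tested on simulated intervals with known answers.

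The members and gene lists were chosen with earlier results of these data known. Named genes were those with most members per class, in all, per 100 kb and at domain and desert ends, those nearest the strongest members, and islet genes with a member. Ppp2r2b, 4933403O03Rik, Phc1, Lphn3 and genes inside domains were named after their values were seen. Weighting by GC group, word copies and read pileups at common peaks were added after the data were seen. Alternatives changed the overlap rule, the -log10 q limit, list size, bin size, density limit, desert definition and gene set. A few genes that these rules name are not reported here.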

Additional observations from a re-analysis of the deposited data

Results flagged for a closer look

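Chromosome X lay outside the comparisons, and the 1 week list held 12225 peaks there against 1272 in WT, while the 5 week list held 1451. On chromosome Y the 5 week list held 44 peaks, whereas the WT and 1 week lists held 0. On chromosome 19 the total number of peaks moved in opposite directions at the 2 times: the log2 ratio of 1 week over WT was -0.574 (1235 against 1838 peaks) and that of 5 weeks over WT was 0.33 (2310 peaks). The same was seen in the most GC-rich group of bins, with -0.6 at 1 week (16913 against 25631 peaks) and 0.444 at 5 weeks (34858 peaks). With 1 library per group, these differences were not tested.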

How the results depend on the processing

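Every value rests on 1 library per group, and leaving out a replicate was not possible. No paired analysis was possible because each group has 1 library. Most members lay near the calling limit, and the part of depth was not tested. Of 52 alternatives, 9 left the value within the 95% interval of the share or of the median, or within 1.5 times the count, and 43 moved it. With this many members the intervals are narrow, so that a change under the printed digits also counts as moved. Most of the moved values, however, changed in the printed digits, some of them widely.

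The number of members was 85523 with reciprocal overlap of 50% and 53117 with no other peak within 1 kb, and it fell to 4200 at a -log10 q of 3, 299 at 5 and 19805 with lists of equal number. In that order of 5 settings, the share in the least GC-rich group was 39.4%, 47.9%, 49.8%, 37.9% and 45.1%, and 45.3% with bins of 250 kb. The share in deserts was 47.2%, 52.9%, 50.6%, 35.1% and 50.9%, and it was 36.9% in deserts of at least 1 Mb and 30.6% in those bounded by all annotated genes. The share in dense domains was 45.4%, 55.6%, 59.4%, 99.7% and 51.2%, with 62.5% in bins of 250 kb and 11.5% at 3 times the mean density. At a -log10 q of 5 a single member makes a bin dense, so that share has no meaning. The share outside genes was 71.9%, 75.7%, 72.5%, 56.5% and 74.6%, and 73.4% with all annotated genes. At a -log10 q of 5 the share outside genes (interval 50.9 to 62) was not above the 59.8% of the bases that lie there. The median width was 475 bp, 443 bp, 294 bp, 303 bp and 366 bp, the median fold 2.3, 2.29, 2.83, 3.36 and 2.63, and the median -log10 q 1.78, 1.71, 3.47, 5.66 and 2.8. The number of classes above the mean was 13, 13, 10, 11 and 14, and 14 with the gene body alone. For 5 weeks only peaks treated alike, the share in the least GC-rich group was 14.6%, and 17.5%, 13.8%, 7.11% and 2.25% under the first 4 settings.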
